A study of Homo sapiens with 6 samples.

Results

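The genes described here encode neuroserpin (SERPINI1), the adaptor protein PDCD10, the plasminogen activators PLAT and PLAU, the urokinase receptor PLAUR and the inhibitor SERPINE2. They were taken as all probe sets that the platform annotation assigns to 1 of these 6 genes alone, which gave 10 probe sets among the 54675 on the array. SERPINI1, PLAT and PDCD10 have 1 probe set each, PLAU and SERPINE2 have 2 each, and PLAUR has 3. SERPINI1 was selected on its measured intensity, which with MIST1 was above both controls in both cell lines, PDCD10 was chosen because it lies head to head with SERPINI1, and the others because they belong to the plasminogen activator system. The contrasts of MIST1 with the controls are therefore given for these genes as descriptions, with no test.

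RNA was measured on one-colour Affymetrix arrays in AGS, a human gastric adenocarcinoma line, and HGC-27, a line from an undifferentiated gastric carcinoma. Each line gave 1 array of cells transfected with GFP and MIST1 plasmids, 1 array of a GFP control that received GFP and empty vector, and 1 array of untransfected parental cells. MIST1, the product of BHLHA15, is a transcription factor of the basic helix-loop-helix class. Transfection used 3 µg of MIST1 plasmid or empty vector with 1.5 µg of GFP plasmid, GFP-positive cells were sorted after 24 h, and RNA was harvested another 24 h later. The expression was transient, so neither transfected group is a stable clone. Only the transfected cells were sorted, so transfection, sorting and handling cannot be told apart in any difference from parental cells. The 2 lines are the only replicates of a condition, and nothing in the labels describes a second culture of a line.

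Plasminogen activators are serine proteases that cut plasminogen into plasmin, a broad protease that degrades fibrin and extracellular matrix. Tissue-type activator (PLAT) acts mainly on fibrin, whereas urokinase (PLAU) works at the cell surface when bound to its receptor (PLAUR). Serpins trap these proteases in irreversible complexes. Neuroserpin is a secreted serpin known mainly from neurons, where it inhibits tissue-type activator, and protease nexin-1 (SERPINE2) inhibits thrombin, urokinase and plasmin. PDCD10, also called CCM3, holds germinal centre kinases of the STK24 group in the STRIPAK phosphatase complex, and its loss causes cerebral cavernous malformations.

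Intensities as deposited had medians of 49.1 to 52.0 per array and ran from 0.48 to 19070. Values were floored at 17.6, the 25th percentile of all values, before taking log2, and a gene was tested where at least 2 arrays exceeded the median of all values, 50.5. This left 13730 genes, each read by the probe set of highest mean log2 value, and all 10 probe sets of the 6 genes passed. A level is compared only within a probe set, because probe sets differ in brightness for the same amount of RNA. The probe set for BHLHA15 read between 41.1 and 75.9 on the 6 arrays and was lower in the arrays labelled MIST1 than in the GFP controls of both lines. The labels do not say whether it can read the transfected construct, so it checks nothing. The 5 epithelial markers summed to between 39088 and 46067 in AGS and to between 1448 and 1690 in HGC-27 (EPCAM there at most 34.4). The defining leukocyte and endothelial genes PTPRC, CD14, VWF and CDH5 were dim, with every probe set at or below 52.4, while CD3E and PECAM1 read at most 66.7 and 101. The ratio of 3′ to 5′ signal for the control transcripts GAPDH and ACTB lay between 0.826 and 1.05 on all arrays.

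SERPINI1 lies on chromosome 3 at 167735721 to 167825569 of GRCh38.p14 and is transcribed away from PDCD10, which occupies 167683298 to 167734892 on the opposite strand. The annotated start sites that face each other are 829 bases apart. RefSeq promoter windows of 300 bases, from 250 before a start site to 50 after it, were available for 5 of the 6 genes in 8 windows. They were searched for the E-box CANNTG, the hexamer that basic helix-loop-helix proteins bind, and for the version of it written CAGCTG, a subset of the first. Both read the same on the opposite strand. The windows of SERPINI1 and of the nearest PDCD10 start are shown because the neighbours differ in this feature. Capitals mark every E-box.
SERPINI1, chr3:167735471-167735770, plus strand, GRCh38.p14 (RefSeq): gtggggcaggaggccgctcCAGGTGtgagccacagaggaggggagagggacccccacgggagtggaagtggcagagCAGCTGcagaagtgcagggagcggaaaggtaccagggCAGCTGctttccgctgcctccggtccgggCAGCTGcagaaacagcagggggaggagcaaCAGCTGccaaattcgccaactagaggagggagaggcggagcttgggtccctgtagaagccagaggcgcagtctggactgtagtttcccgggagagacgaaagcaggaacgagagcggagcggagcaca
PDCD10, chr3:167734843-167735142, minus strand, GRCh38.p14 (RefSeq): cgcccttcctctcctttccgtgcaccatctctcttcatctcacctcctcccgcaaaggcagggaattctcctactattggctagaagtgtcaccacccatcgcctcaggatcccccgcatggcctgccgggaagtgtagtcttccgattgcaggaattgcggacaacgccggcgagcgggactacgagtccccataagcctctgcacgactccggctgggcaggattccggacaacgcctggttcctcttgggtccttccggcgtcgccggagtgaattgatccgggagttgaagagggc

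The SERPINI1 window holds 5 E-boxes, and 4 of them are CAGCTG, beginning 174, 137, 108 and 78 bases before the start site. The remaining E-box begins 231 bases before it. At least 4 copies of CAGCTG occur in 11 of 35116 human promoter windows of the same length (0.0313%), and at least 1 copy in 17.9%. At least 5 E-boxes of any kind occur in 1.79% of windows. The PDCD10 window printed above holds none, and the window of its second start, 1234 bases from that of SERPINI1, holds 1 E-box that is not CAGCTG. Another E-box, CATATG, was found in none of the 8 windows and occurs in 3.04% of all windows. Of the 11 genes with at least 4 copies of CAGCTG in a window, 4 were tested on the array. SERPINI1 is 1 of these 4 and was chosen for its values with MIST1, so its place among them says nothing about the motif. For the other 3 the mean difference of MIST1 over the GFP control was 0.34 for PRKCB, 0.03 for MRPL34 and 0.02 for NCOA1 on the log2 scale. The match is a description of letters and shows no binding.

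**Figure D1:**
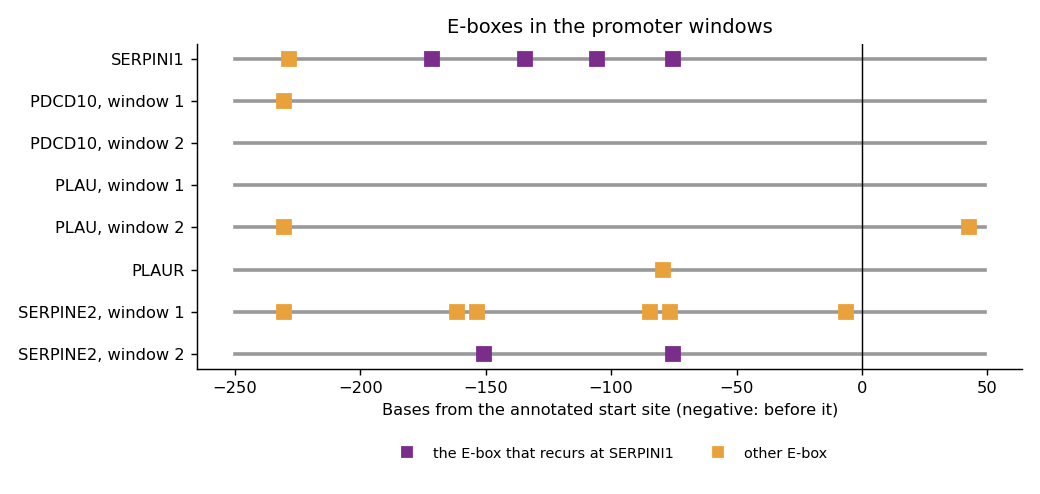
Position of each E-box in the 8 promoter windows, in bases from the annotated start site (vertical line), with purple squares for the E-box found 4 times in the SERPINI1 window and orange squares for any other E-box. SERPINI1 carries 4 purple squares within 174 bases before its start, the second SERPINE2 window carries 2, and the other 6 windows carry none.

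In AGS the SERPINI1 probe set read 238 with MIST1, 57.9 in the GFP control and 80.4 in parental cells. In HGC-27 it read 498 with MIST1, 230.4 in the GFP control and 72.8 in parental cells. In each line the array with MIST1 was the brightest, which is the pattern that chose SERPINI1. The 2 MIST1 values, 238 and 498, lay above all 4 control values, the nearest being 230.4 in the HGC-27 GFP control. How many of all genes show such a separation was not counted. The probe set was above the array-wide median on every array. Relative to the GFP control SERPINI1 was 4.11-fold higher in AGS and 2.16-fold higher in HGC-27, a mean of 1.58 ± 0.66 on the log2 scale (SD, n = 2 lines). Relative to parental cells it was 2.96-fold and 6.84-fold higher, a mean of 2.17 ± 0.855 (SD, n = 2 lines). RNA came from whole populations, so more cells expressing the gene and more RNA per cell cannot be told apart.

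These values chose SERPINI1, and they are set beside the rest of the array only for scale. Its difference from the GFP control ranked first of 13730 genes in AGS and at position 17 in HGC-27. At least 1.5-fold more intensity with MIST1 than with GFP alone was measured for 1.11% of genes in AGS, 1.27% in HGC-27 and 0.211% in both lines. The stricter rule of at least 1.5-fold over both controls in both lines took in 0.124% of genes. Over all genes the log2 difference had an SD of 0.20 in AGS, and that in HGC-27 was 0.22. Of the 6 genes described here, 1 passed the 1.5-fold limit in each line, SERPINI1 in both cases, and 0 were lower by it, where 0.714% (AGS) and 1.14% (HGC-27) of all genes were. Relative to parental cells SERPINI1 alone passed the limit in AGS, where 10.4% of genes did, and SERPINI1, SERPINE2 (3.01-fold) and PLAU (2.19-fold) passed it in HGC-27, where 12.4% did. SERPINI1 is known mainly from neurons, so neuronal markers were read beside it. Of 4 listed, MAP2 and SNAP25 passed the filter, and their summed intensity was 280 with MIST1, 243 in the GFP control and 178.5 in parental cells in AGS, and 131, 129 and 169 in HGC-27. The sums hide unlike patterns. In AGS MAP2 read 178 with MIST1, 155 in the GFP control and 54.6 in parental cells, and SNAP25 102, 88.2 and 124. In HGC-27 MAP2 lay under the floor on all 3 arrays, and SNAP25 read 123, 121 and 168 in the same order. The neuronal nuclear gene RBFOX3 read at most 46.1 and the synaptic vesicle gene SYP at most 20.5, and the part of neuronal genes in the SERPINI1 values was not tested.

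The lines differed in which control was higher. In AGS the GFP control read 0.72 times the parental value, and in HGC-27 it read 3.17 times the parental value. In log2 terms these were -0.47 and 1.66, and the difference between the lines was not tested because each line has 1 array per condition. On the log2 scale the larger part of the HGC-27 distance from parental cells thus lay between the GFP control and parental cells. In intensity, at 498 with MIST1, 230.4 in the GFP control and 72.8 in parental cells, the larger step was from GFP control to MIST1. In AGS all of the distance lay between MIST1 and the GFP control on either scale. Averaged over both lines SERPINI1 did not pass in limma across all genes for the GFP control over parental cells (0.59, SE 0.45, adjusted p = 0.461). This contrast shares the GFP control and parental arrays with the contrasts that chose SERPINI1.

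**Figure D2:**
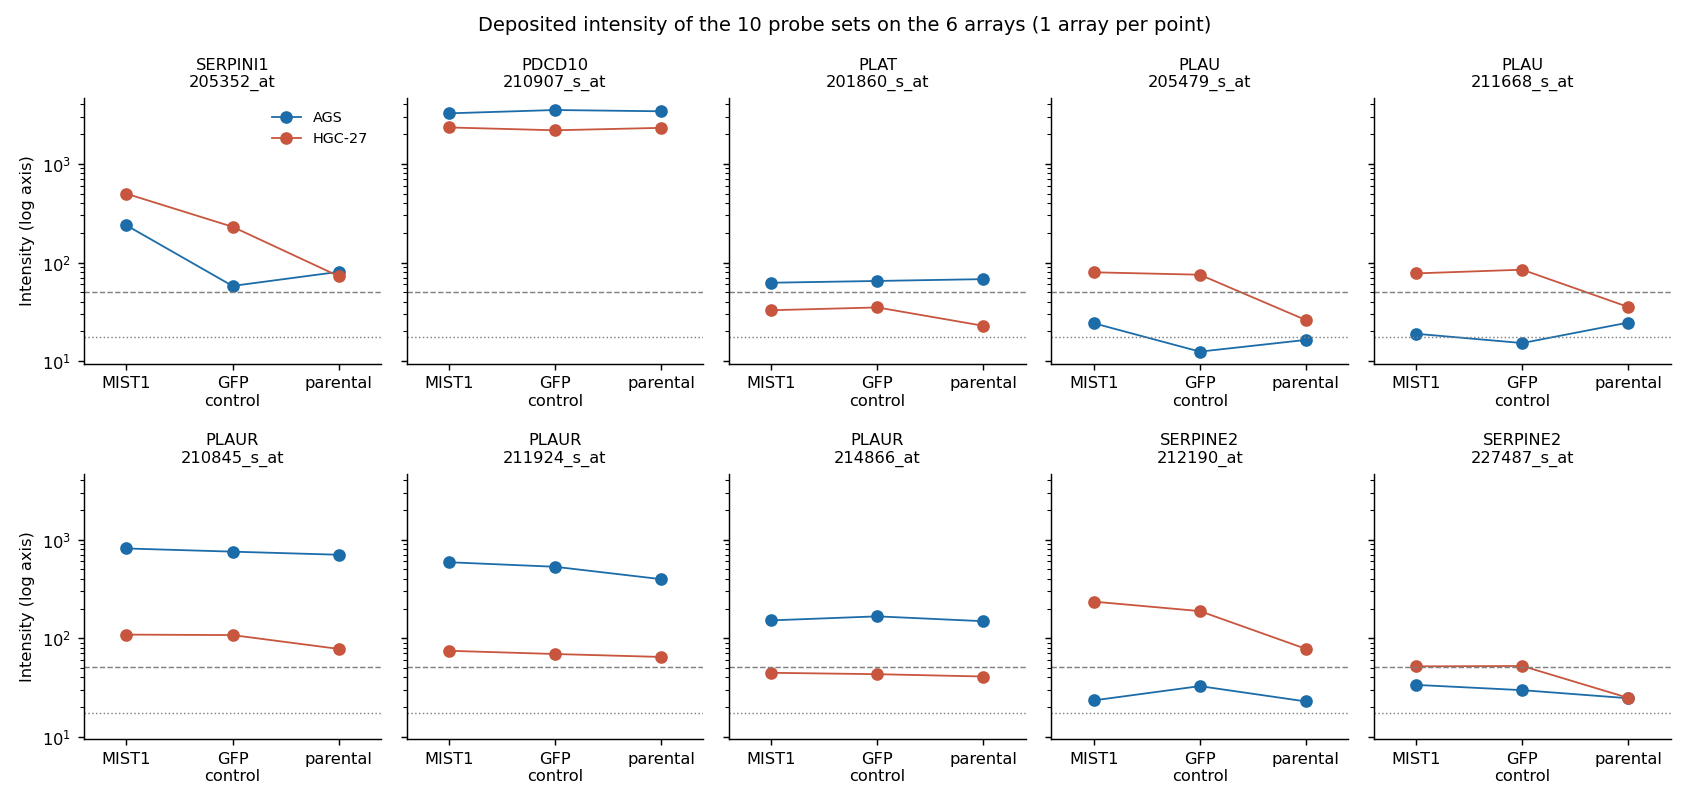
Deposited intensity (log axis) of the 10 probe sets on each array, with MIST1, GFP control and parental cells from left to right, AGS in blue and HGC-27 in red. The dotted line marks the floor of 17.6 and the dashed line the median of all values, 50.5. SERPINI1 is highest with MIST1 in both lines, PDCD10 is level across conditions, and PLAUR is brighter in AGS on all 3 of its probe sets.

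PDCD10, the neighbour that starts 829 bases away, was bright and level. In AGS its probe set read 3254 with MIST1, 3516 in the GFP control and 3414 in parental cells. In HGC-27 it read 2341, 2191 and 2319 in the same order of groups. All 3 AGS values lay above all 3 HGC-27 values, a separation not counted over all genes, and within a line the values differed little. With MIST1 over the GFP control the log2 difference was -0.11 in AGS and 0.10 in HGC-27, where SERPINI1 had 2.04 and 1.11. With the GFP control over parental cells it was 0.04 and -0.08, where SERPINI1 had -0.47 and 1.66. After centring each line, the PDCD10 values spanned 0.11 on the log2 scale over the 6 arrays and those of SERPINI1 spanned 2.77.

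The other genes at this locus were mostly too dim to read. ZBBX read at most 16.3, both probe sets of WDR49 at most 19.3 and SERPINI2, the closest serpin relative of SERPINI1 at the locus, at most 26.9 on any array, and none of the 3 passed the filter. In AGS SERPINI2 read 26.5 with MIST1 and 26.9 with GFP alone, and in HGC-27 18.6 with MIST1 and 10.7 with GFP alone. GOLIM4, on the far side of SERPINI1, encodes a Golgi membrane protein and was measured. In AGS it read 314 with MIST1, 333 in the GFP control and 789 in parental cells, and in HGC-27 907, 899 and 1338. Its log2 difference with MIST1 over the GFP control was -0.09 in AGS and 0.01 in HGC-27. With the GFP control over parental cells GOLIM4 was at -0.91 (SE 0.20, limma adjusted p = 0.08), which did not pass.

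PLAT, the tissue-type activator that neuroserpin inhibits, was dim. In AGS it read 62.4 with MIST1, 65.0 in the GFP control and 67.9 in parental cells. In HGC-27 it read 32.8, 35.0 and 22.8 in the same order, all below the array-wide median. On the log2 scale MIST1 over the GFP control was -0.06 and -0.09, the only 1 of the 6 genes lower in both lines, where 32.7% of all genes were lower in both. The AGS and HGC-27 arrays did not overlap, and how many of all genes show this was not counted.

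Urokinase, encoded by PLAU, was near the floor in AGS. Its brighter probe set read 18.9 with MIST1, 15.3 in the GFP control and 24.6 in parental AGS cells. In HGC-27 it read 77.6 with MIST1, 84.6 in the GFP control and 35.4 in parental cells. The second probe set read 24.2 with MIST1, 12.5 in the GFP control and 16.4 in parental AGS cells. It read 79.6, 75.2 and 26.1 in HGC-27. Both probe sets were thus higher in the 2 transfected HGC-27 arrays than in parental HGC-27 cells, and neither separated MIST1 from the GFP control there. On the log2 scale MIST1 over the GFP control was 0.11 in AGS and -0.13 in HGC-27 on the brighter probe set, and 0.46 and 0.08 on the other. Both AGS values were computed against an array under the floor, so they are understated, and the deposited intensities of the brighter probe set gave 0.31.

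PLAUR, the receptor that anchors urokinase at the cell surface, had 3 probe sets that ordered the lines alike. The brightest read 813 with MIST1, 754 in the GFP control and 702 in parental AGS cells. In HGC-27 it read 109, 108 and 77.9 in the same order. The next probe set gave 589, 530.2 and 397 on the AGS arrays and 74.6, 69.2 and 64.6 on the HGC-27 arrays. On the dimmest the AGS arrays had 152, 167 and 149 and the HGC-27 arrays 44.6, 43.2 and 40.9. No AGS value of a probe set overlapped with its HGC-27 values, but the share of all genes without such overlap was not counted. In limma 60.2% of all genes differed between the lines. The AGS over HGC-27 difference in limma was 2.96 on the brightest probe set, 2.85 on the next and 1.86 on the dimmest in log2 terms. With MIST1 over the GFP control PLAUR was at 0.11 in AGS and 0.02 in HGC-27. On the brightest probe set of each gene, PLAUR and SERPINI1 were the 2 of the 6 genes that were higher in both lines, where 24.5% of all genes were. This depends on the probe set. The dimmest PLAUR probe set was at -0.135 in AGS, and the dimmer PLAU probe set was higher in both lines.

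SERPINE2, the inhibitor of urokinase and thrombin, was brightest in the transfected HGC-27 cells. Its brighter probe set read 235 with MIST1, 188 in the GFP control and 78.0 in parental HGC-27 cells. In AGS it read 23.4, 32.7 and 22.9 in the same order, all below the array-wide median. Its MIST1 over GFP control difference was -0.48 in AGS and 0.32 in HGC-27. The second probe set had 33.6, 29.7 and 24.6 on the AGS arrays and 51.8, 52.3 and 24.8 on the HGC-27 arrays. Its differences were 0.18 and -0.01, so the 2 probe sets had opposite signs in both lines. The dimness of the AGS values limits any reading of the difference there. The 2 SERPINE2 promoter windows differ in their E-boxes. The first holds 6 and no CAGCTG, a number that 0.615% of all windows reach, and the second holds 2 copies of CAGCTG, which 2.05% of windows reach.

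**Figure D3:**
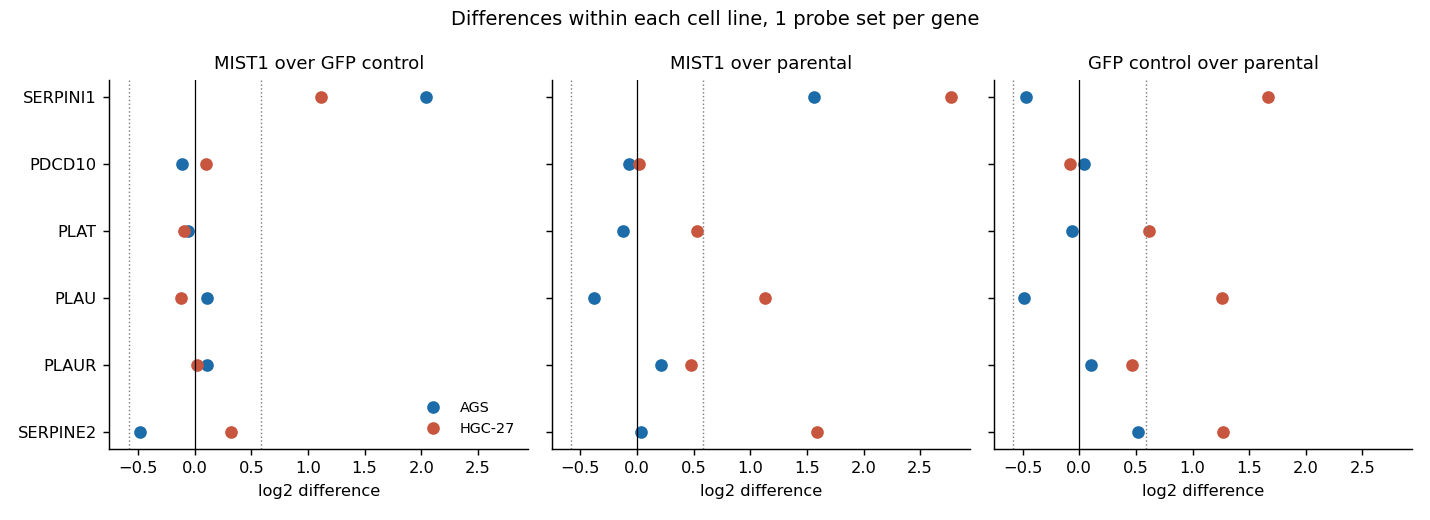
Log2 differences of the 6 genes in AGS (blue) and HGC-27 (red) for MIST1 over GFP control, MIST1 over parental and GFP control over parental, each point from 1 array against 1 array. Dotted lines mark 1.5-fold. In the left panel only SERPINI1 lies beyond a dotted line, in both lines. In the right panel SERPINI1, PLAT, PLAU and SERPINE2 lie beyond it in HGC-27 and none of the 6 does in AGS, where the PLAU value is drawn with the floor.

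The GFP control was compared with parental cells to describe these genes without MIST1. In HGC-27, 4 of the 6 genes were at least 1.5-fold higher in the GFP control, where 13.1% of all genes were. They were SERPINI1 at 3.17-fold, SERPINE2 at 2.42-fold, PLAU at 2.39-fold and PLAT at 1.54-fold. PLAUR was at 1.38-fold and PDCD10 at 0.945-fold. In AGS 0 of the 6 genes were at least 1.5-fold higher, where 8% of all genes were, and with the floor 0 were lower by that limit in either line, where 6.02% in AGS and 5.26% in HGC-27 were. SERPINE2 was nearest at 1.43-fold, and SERPINI1 read 0.72 times the parental value. PLAU was at 0.715 times the parental value once its GFP control array was raised to the floor, and the deposited intensities, 15.3 in the GFP control and 24.6 in parental cells, gave 0.62 times, which is beyond the 1.5-fold limit. The median log2 difference of the 6 genes was 0.94 in HGC-27 and -0.01 in AGS, against 0.13 and 0 over all genes tested. After quantile normalization the medians over all genes were 0.02 and 0.03. In HGC-27 the sum of the 5 epithelial markers was 1666 in the GFP control and 1448 in parental cells and that of 3 fibroblast markers 10648 and 9470.4, and their part in the result was not tested. Most of the epithelial sum was KRT8, at 1518 in the GFP control and 1349.5 in parental cells. CDH1 was also higher in the GFP control, at 89.8 against 22.1. EPCAM (26.6 against 34.4) and KRT18 (22.8 against 35.8) were lower, and KRT19 lay under the floor. Of the fibroblast markers DCN (4607 against 3244) and COL1A2 (333 against 282) were higher in the GFP control. COL1A1 was lower on the probe set used (5708 against 5944), though another of its probe sets was higher (5126 against 4317).

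Over both lines no gene of the 6 passed in limma, where 34 of 13730 genes (0.248%) did. SERPINE2 came nearest at 0.89 (SE 0.36, unadjusted p = 0.0449, adjusted p = 0.205) and was the 1 gene of the 6 with an unadjusted p under 0.05, where 3184 of all genes (23.2%) had one. PLAU was at 0.39 (SE 0.44), PLAUR at 0.29 (SE 0.16), PLAT at 0.28 (SE 0.26) and PDCD10 at -0.02 (SE 0.085). The estimates depend on single arrays. Each fit with 1 array left out has 1 residual degree of freedom, and its p rests mostly on the spread borrowed from other genes. Only effect sizes are therefore given for fits with 1 array left out. Without the AGS parental array limma gave 1.43 for SERPINI1, 1.47 for SERPINE2, 1.2 for PLAU and 0.44 for PLAUR. Without the HGC-27 parental array SERPINI1 was at -0.24, PLAU at -0.43 and PLAT at -0.05. SERPINI1 was at 1.36 without the AGS GFP control and at -0.17 without the HGC-27 GFP control, where PLAU was at -0.11 and PDCD10 at 0.06. SERPINE2 stayed at 0.89 without the AGS MIST1 array. With only the 4 arrays compared SERPINE2 passed in limma (adjusted p = 0.0486), as did 915 of the 13730 genes. This fit also has 1 residual degree of freedom, so the same limit holds for its p.

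The 2 lines were compared with the 3 conditions of a line standing in for replicates. In limma 5 of the 6 genes differed, where 60.2% of all genes did, 3 of them higher in AGS, where 33.1% of all genes were, and 2 lower, where 27.1% were. PLAUR was higher in AGS by 2.96 on the log2 scale (SE 0.13, adjusted p = 3.55e-06), with an intensity of 756 ± 55.4 in AGS and 98.1 ± 17.5 in HGC-27 (SD, n = 3 arrays each). PLAT was higher in AGS by 1.13 (SE 0.21, limma adjusted p = 0.0036), and by 0.36 with the floor at the median (adjusted p = 0.0214). PDCD10 was higher in AGS by 0.57 (SE 0.07, limma adjusted p = 0.000437). SERPINE2 was lower in AGS by a log2 difference of -2.54 (SE 0.29, limma adjusted p = 0.000355), at 26.3 ± 5.52 in AGS and 167 ± 80.6 in HGC-27 on its brighter probe set. The second SERPINE2 probe set was at -0.48 (limma adjusted p = 0.122) and did not pass, with 24.6 in parental AGS and 24.8 in parental HGC-27 cells, and the mean of both probe sets gave -1.51 (adjusted p = 0.00218). With the floor at the median the brighter probe set gave -1.58 (adjusted p = 0.00542). PLAU was at -1.61 (SE 0.36, limma adjusted p = 0.00741), understated because 1 AGS array lay under the floor, and the call was lost with the floor at the median (adjusted p = 0.0585) and with no filter (adjusted p = 0.0984). AGS thus read higher for the urokinase receptor and HGC-27 for urokinase.

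SERPINI1 was at -0.97 in AGS over HGC-27 (SE 0.37, limma adjusted p = 0.0574) and did not pass. Its parental values, 80.4 in AGS and 72.8 in HGC-27, were close, and the distance lay in the transfected arrays. The value depends on which arrays enter. Without the parental arrays the difference was -1.53 (limma adjusted p = 1.55e-05), in a fit where 9936 of all 13730 genes passed. That fit has 1 residual degree of freedom, so its p rests mostly on spread borrowed from other genes. The SERPINI1 difference was -0.925 without 1 MIST1 array of either line and -0.46 without 1 GFP control array of either line. Leaving out 1 parental array gives the estimate without both, because a lone array of a condition adds nothing to the difference between lines. SERPINI1 also did not pass with no filter (adjusted p = 0.279) or with condition left out (adjusted p = 0.31).

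**Figure D4:**
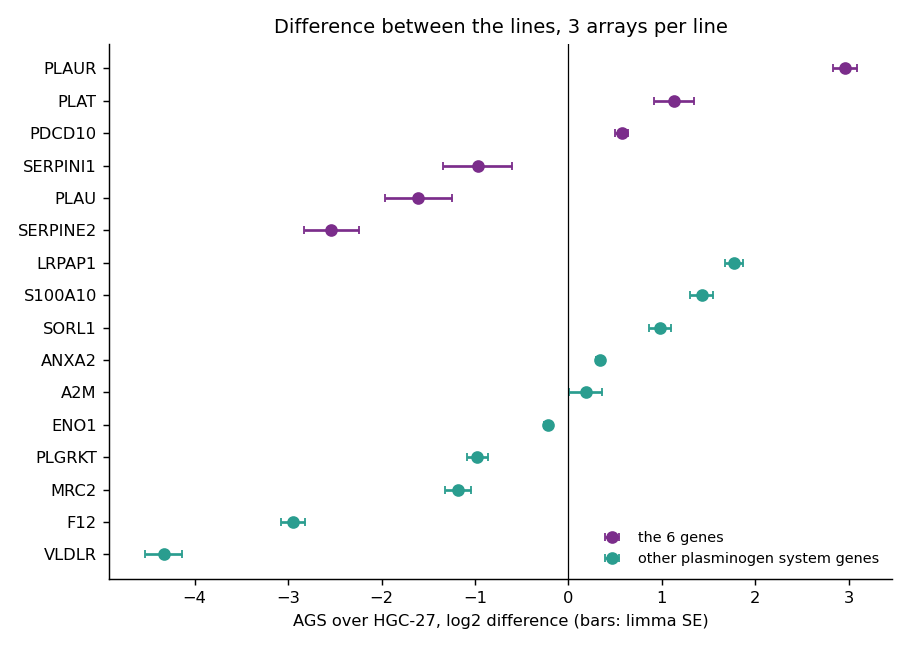
Log2 difference of AGS over HGC-27 from limma for the 6 genes (purple) and the 10 other plasminogen system genes that were measured (green), with bars of 1 SE and 3 arrays per line. PLAUR, PLAT and PDCD10 lie right of 0 and SERPINI1, PLAU and SERPINE2 left of it, and VLDLR has the most negative value of the genes drawn, -4.33.

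The wider plasminogen system was described by a list of 20 genes, of which 10 were measured. With MIST1 over the GFP control none of the 10 was at least 1.5-fold different in the same direction in both lines, where 0.211% of all genes were higher and 0.0218% lower by that limit. The median of the list was 0.01 and that of all genes -0.02. The largest mean difference was that of PLGRKT, a transmembrane plasminogen receptor, which in AGS read 171 with MIST1 and 243 with GFP alone, and in HGC-27 348 with MIST1 and 490.3 with GFP alone. Its log2 differences were -0.51 and -0.49, while the GFP control over parental cells gave -0.58 and -0.46. VLDLR, a receptor that clears protease and serpin complexes, differed by -0.77 in AGS, where it read 19.8 with MIST1 and 33.7 in the GFP control, and by -0.04 in HGC-27. The protease inhibitor A2M was at 0.24 and 0.44, and LRPAP1, a chaperone of such receptors, at 0.10 and 0.31. Plasminogen itself (PLG) was dim, with its 3 probe sets at or below 30.7. In the GFP control over parental cells 0 of 10 passed in limma and 4 had an unadjusted p under 0.05, against 23.2% of all genes, the lowest adjusted p being 0.0588 for ANXA2. The largest differences there were -0.62 for MRC2 (SE 0.17), -0.52 for PLGRKT (SE 0.14), 0.42 for S100A10 (SE 0.15) and -0.36 for A2M (SE 0.21).

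Between the lines 9 of the 10 passed in limma, against 60.2% of all genes, with 4 higher (33.1% of all genes) and 5 lower in AGS (27.1%). The plasminogen receptor subunits S100A10 and ANXA2 were higher in AGS by 1.43 (SE 0.12) and 0.33 (SE 0.04), as were LRPAP1 by 1.77 (SE 0.10) and the sorting receptor SORL1 by 0.98 (SE 0.12). VLDLR was at -4.33 (SE 0.20), coagulation factor F12 at -2.95 (SE 0.13), the collagen receptor MRC2 at -1.18 (SE 0.14), PLGRKT at -0.98 (SE 0.11) and ENO1, a glycolytic enzyme that also binds plasminogen, at -0.22 (SE 0.04). A2M, at 0.19 (SE 0.18), did not pass. Of 14 matrix proteases and their inhibitors 10 were measured and 7 differed between the lines, near the 60.2% of all genes, with 4 higher and 3 lower in AGS. The membrane protease ST14 and the collagenase MMP1 were higher by 6.78 and 5.03, both understated because all 3 HGC-27 arrays lay under the floor, and the inhibitor TIMP3 was at -5.25. None of these 10 was at least 1.5-fold different in the same direction in both lines with MIST1 over the GFP control. MMP1 had the largest mean, 0.29, from 0.58 in AGS and 0 in HGC-27, where it lay under the floor. In the GFP control over parental cells 0 of 10 passed in limma and 3 had an unadjusted p under 0.05, near the 23.2% of all genes.

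PDCD10 partners of the cavernous malformation and STRIPAK complexes gave small differences with MIST1. Of 24 listed genes 22 were measured, 5 were higher and 6 lower in both lines with MIST1 over the GFP control, and none reached 1.5-fold in both. The median was -0.01, against -0.02 over all genes. HEG1, the receptor that anchors the malformation complex, had the largest mean at 0.20, followed by the STRIPAK subunit SIKE1 at -0.17, TRAF3IP3 at 0.17 and STRIP2 at -0.12. In the GFP control over parental cells 0 of 22 passed in limma and 5 had an unadjusted p under 0.05, near the 23.2% of all genes. The largest values were HEG1 at 0.75 (SE 0.26), SIKE1 at -0.50 (SE 0.21), TRAF3IP3 at -0.44 (SE 0.18) and SLMAP at -0.42 (SE 0.16). Between the lines 13 of 22 passed, near the 60.2% of all genes, with 11 higher (33.1% of all genes) and 2 lower in AGS (27.1%). The kinase STK24, a direct partner of PDCD10, was higher in AGS by 1.79 (SE 0.06) and HEG1 by 2.51 (SE 0.21), while the kinase STK26 was at -0.91 (SE 0.09) and CTTNBP2 at -3.51, which is understated because 2 of 3 AGS arrays lay under the floor.

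Other serpins were described in the same way. Of 13 listed, 6 were measured, and with MIST1 over the GFP control 1 was higher and 4 were lower in both lines, none by 1.5-fold. SERPINB8 had the largest mean at -0.16, followed by SERPINF1 at 0.15, SERPINB1 at -0.14 and SERPINA1 at -0.11. SERPINA1, the elastase inhibitor alpha-1-antitrypsin, was at -0.75 in the GFP control over parental cells (SE 0.17, limma adjusted p = 0.0822), which did not pass. In that contrast 0 of 6 passed in limma and 1 had an unadjusted p under 0.05, against 23.2% of all genes. Between the lines 5 of 6 passed, where 60.2% of all genes did. On the probe set used for each gene, SERPINB1 and SERPINB5 were higher in AGS, at 1931 to 2350 and 1394 to 1541. In HGC-27 these probe sets read at most 20.1 and 12.8. The dim second probe set of SERPINB5 read higher in HGC-27, at 34.0 to 56.4 against 21.3 to 32.4 in AGS. The fitted differences of 6.84 for SERPINB1 and 6.402 for SERPINB5 are understated. Of 3 HGC-27 arrays, 2 for SERPINB1 and all 3 for SERPINB5 lay under the floor. SERPINF1 was at -4.67 (SE 0.26).

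**Figure D5:**
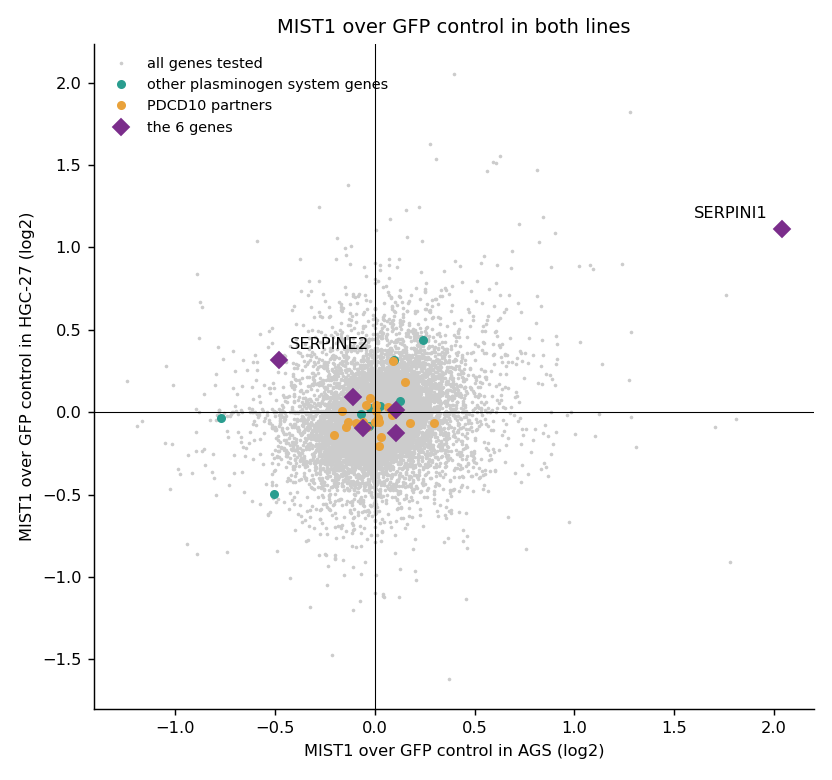
Log2 difference of MIST1 over the GFP control in AGS (horizontal axis) and HGC-27 (vertical axis) for the 13730 genes tested (grey), with the 6 genes as purple diamonds, 10 other plasminogen system genes in green and 22 PDCD10 partners in orange. SERPINI1 lies at 2.04 and 1.11, apart from the other 5 genes, which lie between -0.48 and 0.32 on both axes.

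The genes whose pattern was most like that of SERPINI1 were ranked by Pearson r over the 6 arrays, after centring log2 values within each line, among 1496 genes whose centred values spanned at least 1. This is a description over arrays that all enter the selection of SERPINI1. RAMP3, a receptor activity-modifying protein, was nearest at r = 0.984, followed by CLXN at 0.976, TMC7 at 0.962, UNC119 at 0.955 and the stress-responsive gene NDRG1 at 0.955. RAMP3 read 61.5 with MIST1, 35.1 in the GFP control and 36.0 in parental AGS cells, and 53.1, 36.4 and 17.7 in HGC-27. NDRG1, the brightest of the 5, had values of 427, 276 and 233 on the AGS arrays in that order, while the HGC-27 arrays gave 325, 218 and 114. Among the other 5 genes described here PLAUR was nearest to SERPINI1 at r = 0.85 over a span of only 0.48, and PDCD10 was at -0.43. The genes most like PDCD10 by the same measure were TMEM239, IL12RB1, BPIFB1, ITGB3 and SLC60A1 with r between 0.728 and 0.8, which for a gene whose own values span 0.11 describes very small differences.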

How the data were processed

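The authors deposited 1 linear intensity per probe set and array for 6 arrays, and per the labels' design text the study used dChip. Background correction and scaling of these intensity values are not given in the sources used here, and they were used without further scaling. Of 54675 probe sets, 41097 had 1 gene in the platform annotation. For 41043 of these the symbol was taken from RefSeq through the gene ID, whether or not it changed. Control probe sets (6 with a gene name), XIST and Y-linked genes were left out. Values were floored at the 25th percentile, taken to log2 and filtered as stated. Contrasts used limma 3.58.1 in R 4.3.3 on all 6 arrays (lmFit, eBayes with a trend, 2 residual degrees of freedom), with cell line as a block, or condition as a covariate for the lines. Two-sided p-values were adjusted by Benjamini-Hochberg over 13730 genes, at 0.05. The code was tested on simulated data. Pearson r was 0.971 to 0.996 within a line and 0.704 to 0.73 between lines, which is the pairing behind the block. The number of arrays, not a depth, limits precision. In both contrasts p-values measure how far the condition differences vary between the 2 lines, with spread borrowed from other genes. They do not measure variation between repeat cultures of a line. Named genes were the 6 genes, list genes past a test or else the 4 with the largest differences, and the 5 most like SERPINI1 or PDCD10. The members and lists were chosen with earlier results of these data known, and the motifs with the promoter letters in view. Alternatives were other floors, filters, scaling, probe set rules, model terms and leaving out each array.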

Additional observations from a re-analysis of the deposited data

Results flagged for a closer look

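For some of the 6 genes the 2 lines differed in the direction of the same contrast. None of these differences between lines was tested, since each value compares 1 array with 1 array. With the GFP control over parental cells, SERPINI1 was at -0.474 in AGS and 1.662 in HGC-27, PLAU at -0.484 and 1.258, PLAT at -0.061 and 0.619, and PDCD10 at 0.043 and -0.082, all on the log2 scale. With MIST1 over the GFP control, SERPINE2 was at -0.48 in AGS and 0.319 in HGC-27, PLAU at 0.106 and -0.125, and PDCD10 at -0.112 and 0.095. These directions depend on the probe set. In the same contrast the second PLAU probe set was at 0.461 and 0.081, and the second SERPINE2 probe set at 0.177 and -0.012. With the GFP control over parental cells the second PLAU probe set was at 0 in AGS, under the floor, and 1.527 in HGC-27. PLAU and SERPINE2 were dim in AGS, and the PLAU values there include an array raised to the floor.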

How the results depend on the processing

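The mean log2 difference of SERPINI1 with MIST1 over the GFP control was 1.60 after quantile normalization, against 1.58, and ran from 1.11 to 2.04 when 1 array was left out, which for a transfected array leaves 1 line. Other floors, filters and probe set rules cannot move it, because the gene has 1 probe set that is above the floors on every array. A lone array of a condition is assumed to vary like the others. For the GFP control over parental cells limma called 34 genes. It called 0 with no filter, no floor, a floor set to the median, no variance trend or no replicate block, where 3365, 3131, 2858, 2943 and 385 genes had an unadjusted p under 0.05. It called 1 gene with the mean of all probe sets, 75 after quantile normalization, 170 with every probe set as its own row, 915 with the replicate block on only the 4 arrays compared, and 81 to 5324 when 1 array was left out. The cause was not tested. In that contrast the values ran from -0.242 to 1.43 for SERPINI1, -0.427 to 1.2 for PLAU, -0.053 to 0.611 for PLAT and -0.102 to 0.063 for PDCD10 when 1 array was left out, and PLAT turned to -0.031 with the floor at the median. AGS over HGC-27 gave 8262 genes, 15516 with every probe set as its own row, which tests more rows, and 6847 to 9947 when 1 array was left out. The 1.5-fold limit took in 251 genes in AGS and 332 in HGC-27 for MIST1 over the GFP control, against 1851 and 2469 at 1.2-fold and 27 and 39 at 2-fold.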
